A study of Pan troglodytes with 8 samples.

Results

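The accessible regions at 9 genes of the HES and HEY family, HES1, HES2, HES4, HES5, HES6, HES7, HEY1, HEY2 and HEYL, were described in 4 cell populations of chimpanzee cerebral organoids. The members were all regions whose closest gene in the deposited table was one of these genes, at any distance, together with the regions whose human (hg38) midpoint lay in a window around HES1 on chromosome 3, from 193900000 to 194500000. The rule found 120 rows, of which 2 had no chimpanzee identifier and no counts, so that 118 of 211348 regions were members. Of these, 27 were nearest to a member gene: 2 each to HES1, HES2, HES7 and HEYL, 1 to HES4, 3 to HES5, 4 to HEY2, 5 to HEY1 and 6 to HES6. The HES1 window held 93 regions, of which 91 were nearest to another annotated gene, mostly a non-coding one. Protein-coding neighbours in the window were GP5, nearest to 5 regions, LRRC15, nearest to 3, and CPN2, nearest to 2, so these regions share a neighbourhood with HES1 and nothing more is known of what they act on.

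Notch is a receptor that is cut when a ligand on a neighbouring cell binds it, and its freed intracellular part joins the DNA-binding protein RBPJ and co-activators of the MAML family to switch on target genes. HES and HEY genes are the best known of these targets and encode basic helix-loop-helix repressors, and HES proteins recruit TLE co-repressors. In the developing cortex HES1 and HES5 repress proneural genes such as NEUROG2 and so keep radial glia, the neural stem cells, from differentiating. HES6 is the exception, since it counteracts HES1 and goes along with neurogenesis. An open region near a gene shows accessible chromatin there and is not a measure of the gene's RNA.

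The cells were sorted from organoids of the induced pluripotent stem cell line SandraA in week 8 of culture (± 3 days), and open chromatin was profiled by ATAC-seq, in which a transposase cuts and tags accessible DNA. The 4 populations were apical radial glia (aRG), which line the ventricle-like lumen, basal radial glia (bRG), which have left it, basal intermediate progenitors (bIP), which mostly divide into neurons, and BCL11B+ neurons (N). Each population had 2 libraries, and the labels name no treatment and no genetic change for any of them. All 8 libraries stem from 1 line. Whether libraries 1 and 2 were grown apart is not stated, and the p-values measure only the spread between these samples, which may be technical. In such bulk samples a smaller share of cells with an open region and a less open region in every cell cannot be told apart.

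Library totals lay between 24913928 and 34845193 counts. Counts were summed over all regions with the same closest gene, giving 1 gene sum per gene, scaled to library size as CPM. The gene sums of 8 radial glia markers added up to 1080 and 988 CPM in aRG, 997 and 990.4 in bRG, 516 and 624 in bIP and 297 and 264 in N, and all 8 genes fell from aRG to bIP and from bIP to N. The 6 bIP markers added up to 795 and 819.6 CPM in bIP against 530.2 and 481 in aRG. From aRG to bIP 4 of them rose and none fell (22% and 18.7% of all gene sums). NEUROG2 among them had -1.09 ± 0.41 without a call. The 8 neuron markers added up to 704 and 680.4 CPM in N against 442 and 399.8 in aRG. From aRG to N 6 of them rose and 1 fell (32.8% and 28% of all gene sums). The neuron markers did not set N apart from bIP, where they added up to 726 and 698.5 CPM, and from bIP to N 3 of them rose and 3 fell. Among markers of other cell types, those of inhibitory neurons went from 325 and 283 CPM in aRG to 149 and 135 in N with 4 of 7 fallen. From aRG to N, 3 of 4 genes of mesenchyme and endothelium fell and 1 rose, 3 of 4 of the oligodendrocyte lineage fell, and 2 of 5 of choroid plexus and hem fell and 1 rose. The 2 microglia genes with regions went from 6.43 and 6.54 CPM in aRG to 12.9 and 11.6 in bIP and 10.6 and 8.99 in N, with 1 risen in either population, and none of the marker genes with regions was at 0 in any library. The 2 bIP libraries were not alike in the radial glia markers, and library 2 of bIP also lay above library 1 in 45 of the 62 member regions that fell from aRG to N (median log2 ratio 0.21). In these 62 regions library 1 of N lay above library 2 of N in 44 (median 0.31). The same counts were not made over all regions, so whether they are particular to the members is not known here. The part of these differences between libraries in the results was not tested.

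By gene sums, HES1 had the largest fall of the 9 genes from aRG to N, while HES2 and HEY1 rose. Gene sums were tested with edgeR's quasi-likelihood test, adjusted by Benjamini-Hochberg over 40618 genes, and "rose" and "fell" are used for an adjusted p under 0.05. From aRG to N, HES1, HES4, HES5, HES6 and HEY2 fell, 5 of 9, where 28% of all gene sums fell. HES2 and HEY1 rose, 2 of 9, where 32.8% of all rose. From aRG to bIP, HES1 and HES4 fell (2 of 9, against 18.7% of all) and HES2 rose (1 of 9, against 22%). From bIP to N, HES1, HES5, HES6 and HEY2 fell (4 of 9, against 19.2%) and HEY1 rose (1 of 9, against 20.9%).

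HES1 and HES4 fell from bRG to bIP (2 of 9, against 18.1% of all gene sums), and HES2 and HES6 rose (2 of 9, against 19.8%). From bRG to N, HES1, HES4, HES5 and HEY2 fell (4 of 9, against 27.3%), and HES2 and HEY1 rose (2 of 9, against 31.9%). These comparisons share the bIP and N libraries with those against aRG and are no separate evidence. HES7 and HEYL were called in none of the 6 comparisons of gene sums.

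The size of the change differed from gene to gene. The HES1 sum was 78.0 and 75.01 CPM in the libraries of aRG, 76.2 and 71.1 in bRG, 28.2 and 40.6 in bIP and 15.7 and 13.2 in N, with means of 76.5 ± 2.09 for aRG and 14.4 ± 1.75 for N (SD, n = 2). The radial glia, bIP and N libraries did not overlap, and its log2 fold change from aRG to N was -2.40 ± 0.17 (SE; edgeR adjusted p = 1.1e-05). HES5 changed by -1.49 ± 0.35, HEY2 by -1.04 ± 0.15, HES4 by -0.76 ± 0.10 and HES6 by -0.44 ± 0.14 in the same comparison. HES2, a low locus, rose by 1.09 ± 0.24, and HEY1 rose by 0.42 ± 0.15. The calls of HEY1 and HES6 were the least firm: HEY1 lost its call from aRG to N with DESeq2's size factors (0.37, adjusted p = 0.057), with DESeq2 itself (0.37, adjusted p = 0.065) and without library 2 of aRG (0.27), bIP (0.35) or N (0.28), and HES6 lost its call without library 1 of aRG (-0.36) or library 2 of N (-0.24), and had -0.68 without library 1 of N. From bIP to N, HES5 lost its call without library 1 of bIP (-1.01), library 2 of bIP (-1.20) or library 2 of N (-0.64), and HEY1 without the same libraries (0.58, 0.46 and 0.41), while the rise of HES6 from bRG to bIP was lost without any one of the 4 libraries compared (0.43 to 0.51) and with regions at most 1 kb away (0.25).

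**Figure D1:**
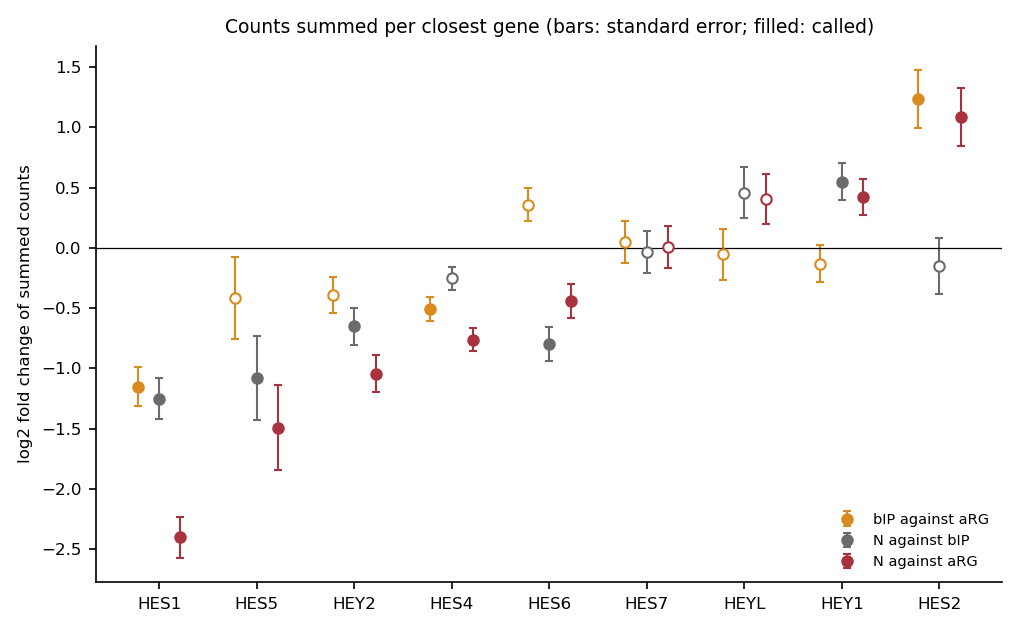
Log2 fold change of the counts summed per closest gene (y axis) for the 9 genes (x axis), with bars of 1 standard error, for bIP against aRG, N against bIP and N against aRG, where filled points passed an adjusted p of 0.05. HES1 has the lowest points in N against aRG (-2.40) and HES2 the highest (1.09).

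Single regions were then tested one by one in a fit of 198227 regions, which included 116 of the 118 members. The other two had counts too low for the filter, 1 near GP5 in the HES1 window and 1 at 9958 bp from HEY1. CPM of regions and of gene sums were scaled separately, so a region's log2 fold change can differ slightly from that of a gene sum made of it. Over all regions the median log2 fold change from aRG to N was 0.13 with TMM scaling, 0.03 with DESeq2's size factors and 0.255 with library totals only, and member values are relative to that scale. From aRG to N, 62 of 116 member regions fell (31.7% of all tested regions fell) and 16 rose (37.2% of all rose), with a median of -0.76 over the 116. From aRG to bIP, 37 fell (22.6% of all) and 16 rose (24.5% of all), with a median of -0.35. From bIP to N, 51 fell (22.6% of all) and 10 rose (25% of all), with a median of -0.63. When 1 library was left out, the numbers of risen and of fallen regions both changed, to fewer in some fits and to more in others. Among these comparisons the largest relative drop was in the risen from bIP to N, without library 2 of bIP.

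The same counts against bRG were 38 fallen (20.4% of all) and 16 risen (22.4% of all) in bIP, and 62 fallen (30.4% of all) and 14 risen (37.5% of all) in N. The 16 risen from bRG to bIP were 6 without library 1 of bRG, 8 without library 2 of bRG or either library of bIP, and 10 with DESeq2, and the 38 fallen were 23 without library 1 of bIP. Between bRG and aRG no member region and no member's gene sum was called by edgeR or by DESeq2, and the share of all regions called was 0% and of all gene sums 0%. At an unadjusted p under 0.05 edgeR had 2 of 116 member regions, 0 of 9 member gene sums and 5232 of all regions, and DESeq2 had 1 member region and 2331 of all regions. The 2 member regions lay 55.2 and 165.8 kb from the HES1 start, the first with 6.78 and 7.01 CPM in aRG and 10.6 and 10.2 in bRG, and the second at under 1 CPM in all 4 libraries.

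**Figure D2:**
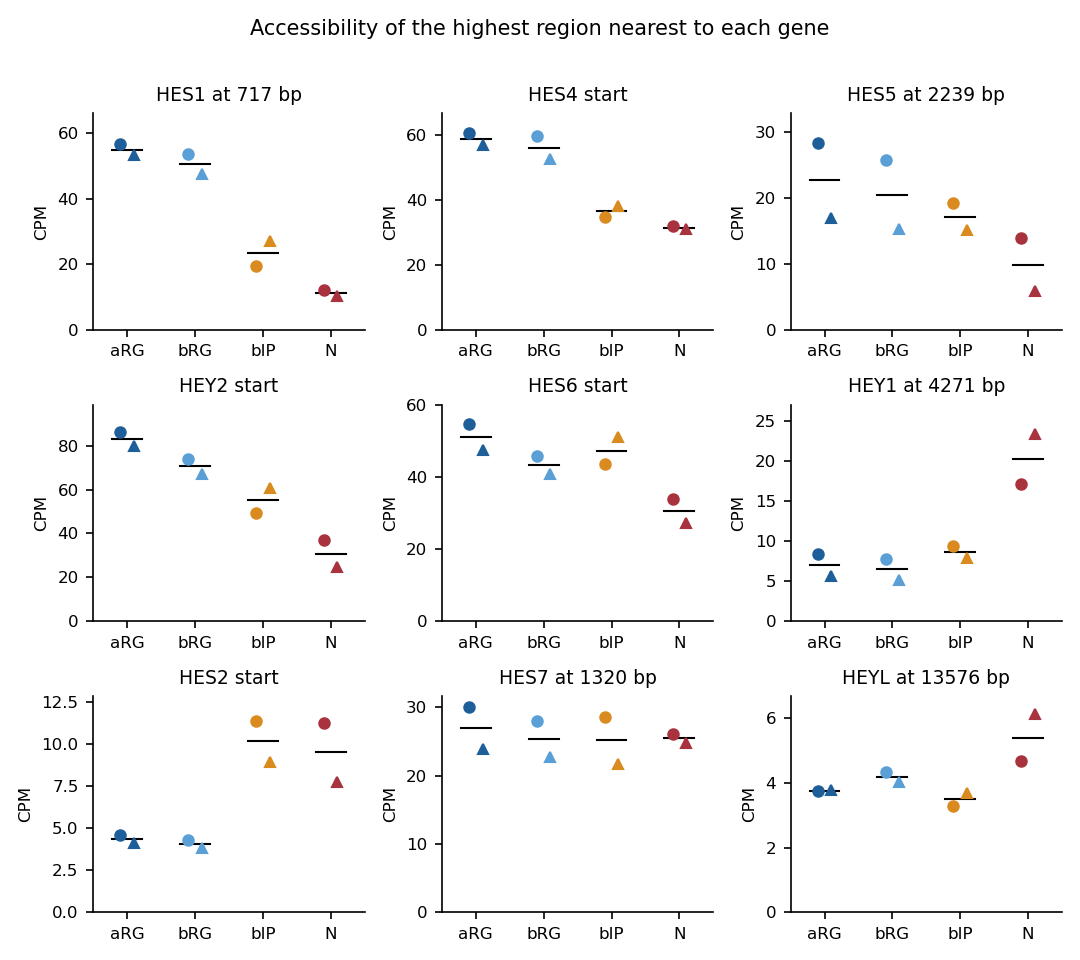
CPM (y axis, from 0) of the region with the highest mean level among those nearest to each gene, by population (x axis), with a circle for library 1, a triangle for library 2 and a bar for the mean. HES1, HES4, HES5, HEY2 and HES6 are lowest in N, HEY1 is highest in N, and HES7 has 21.7 to 30.0 CPM in the 8 libraries.

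Per kilobase, the HES1 start was the most open of the 27 regions nearest to a member gene in aRG. It had 56.9 CPM per kb there, followed by the neighbouring HES1 region with 44.0, the HEY2 start with 37.4, the HEY1 region at 2048 bp with 29.7, the HES5 region at 10215 bp with 27.0, the HES5 region at 2239 bp with 25.5 and the HES4 start with 23.8. In N the HEY1 region at 4271 bp led with 20.3 CPM per kb, followed by the HEY1 regions at 1021 bp with 19.1 and 2048 bp with 14.7 and the HES7 region at 1320 bp with 14.5, and the HES1 start had 5.90. With 2 libraries each, neighbours in these orders are not separated by a test. The orders also depend on the width of the deposited regions, which was 241 to 2489 bp among the members. In CPM the wider HEY2 and HES4 starts lay above the HES1 start in aRG.

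The HES1 promoter closed in steps. The region on the HES1 start covers 441 bp (panTro6 chr3:192197419-192197859). It had 24.9 and 25.2 CPM in aRG, 22.5 and 22.3 in bRG, 6.18 and 10.9 in bIP and 2.73 and 2.48 in N. All 4 radial glia libraries lay above both bIP libraries, and these above both N libraries. The log2 fold change was -1.56 ± 0.23 from aRG to bIP (SE; edgeR adjusted p = 0.00018), -1.70 ± 0.25 from bIP to N and -3.26 ± 0.25 from aRG to N (adjusted p = 4.9e-07), so N were 9.64-fold lower than aRG.

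The other region nearest to HES1, 717 bp away and 1250 bp wide (chr3:192195755-192197004), was higher throughout. It had 56.8 and 53.2 CPM in aRG, 53.6 and 47.4 in bRG, 19.6 and 27.0 in bIP and 11.9 and 10.2 in N, again with no overlap between radial glia, bIP and N. Its log2 fold change from aRG to N was -2.31 ± 0.15 (edgeR adjusted p = 2.0e-07). On the other side, 5.3 kb from the HES1 start and assigned by the table to RN7SL215P, a region of 1755 bp had 49.0 and 44.0 CPM in aRG, 43.3 and 42.2 in bRG, 15.2 and 19.9 in bIP and 7.45 and 6.29 in N, which is -2.75 ± 0.15. In the deposited peak lists, N had a peak on the region 717 bp away but none on the HES1 start or the region at 5.3 kb, while aRG, bRG and bIP had peaks on all 3.

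Some distal regions around HES1 were among the members with the highest CPM in radial glia. The highest CPM of all members in aRG, apart from the HEY2 start, was at a region 192.2 kb from the HES1 start on the side of lower coordinates (chr3:192003862-192005311), with 75.4 and 70.1 CPM in aRG, 69.0 and 65.7 in bRG, 11.2 and 22.4 in bIP and 3.38 and 2.98 in N. It changed by -4.51 ± 0.26 from aRG to N (edgeR adjusted p = 7.5e-08), the largest fall among the members, and N were 22.8-fold lower. A region 76.5 kb away on the other side (chr3:192271508-192273042) fell as well, with 56.2 and 58.3 CPM in aRG, 47.5 and 49.7 in bRG, 11.7 and 18.5 in bIP and 3.23 and 3.30 in N, a change of -4.13 ± 0.19. Both changed more than the HES1 start in their point estimates, and that difference was not tested.

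Some regions kept more of their level in N. At 174.8 kb on the lower side (chr3:192020989-192022964) the CPM were 68.7 and 62.8 in aRG, 57.2 and 56.5 in bRG, 16.0 and 22.3 in bIP and 9.56 and 8.76 in N, which is -2.84 ± 0.15. By contrast, smaller regions at 207.0 kb (-4.02 ± 0.41) on the lower side and 82.9 kb (-4.06 ± 0.38) on the higher side went from 3.84 and 3.02 CPM to 0.248 and 0.157, and from 9.91 and 11.3 to 0.497 and 0.786. The fall from bIP to N was largest at 314.4 kb on the higher side, where 1.53 and 2.88 CPM in bIP stood against 0.248 and 0.118 in N (-3.51 ± 0.51), with 8 and 3 counts in N. A region 350.6 kb away, on the start of LINC00884 and picked out after its values were seen, had between 24.5 and 30.4 CPM in all 8 libraries.

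The step at which a fall was called was not the same everywhere. The sizes of the steps were not compared by a test, and a missing call does not show that a step was absent. At 90.2 kb on the higher side the CPM were 7.52 and 5.96 in aRG, 8.06 and 5.85 in bRG, 4.43 and 3.65 in bIP and 0.993 and 0.550 in N, with -0.74 ± 0.31 from aRG to bIP, which was not called, and -2.36 ± 0.36 from bIP to N (edgeR adjusted p = 0.00026). At 80.9 kb on the lower side 3.41 and 4.62 CPM in aRG, 3.41 and 5.07 in bRG and 2.91 and 4.22 in bIP overlapped, and N had 1.02 and 0.432 (-2.25 ± 0.42 from bIP to N). At 235.9 kb on the lower side, the farthest member on that side, 3.92 and 6.76 CPM in aRG stood against 0.981 and 1.27 in bIP, a fall of -2.24 ± 0.40, and its later fall from bIP to N (-1.23 ± 0.47) lost its call without library 1 of bIP (-1.41), library 2 of bIP (-1.19) or library 1 of N (-0.76).

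**Figure D3:**
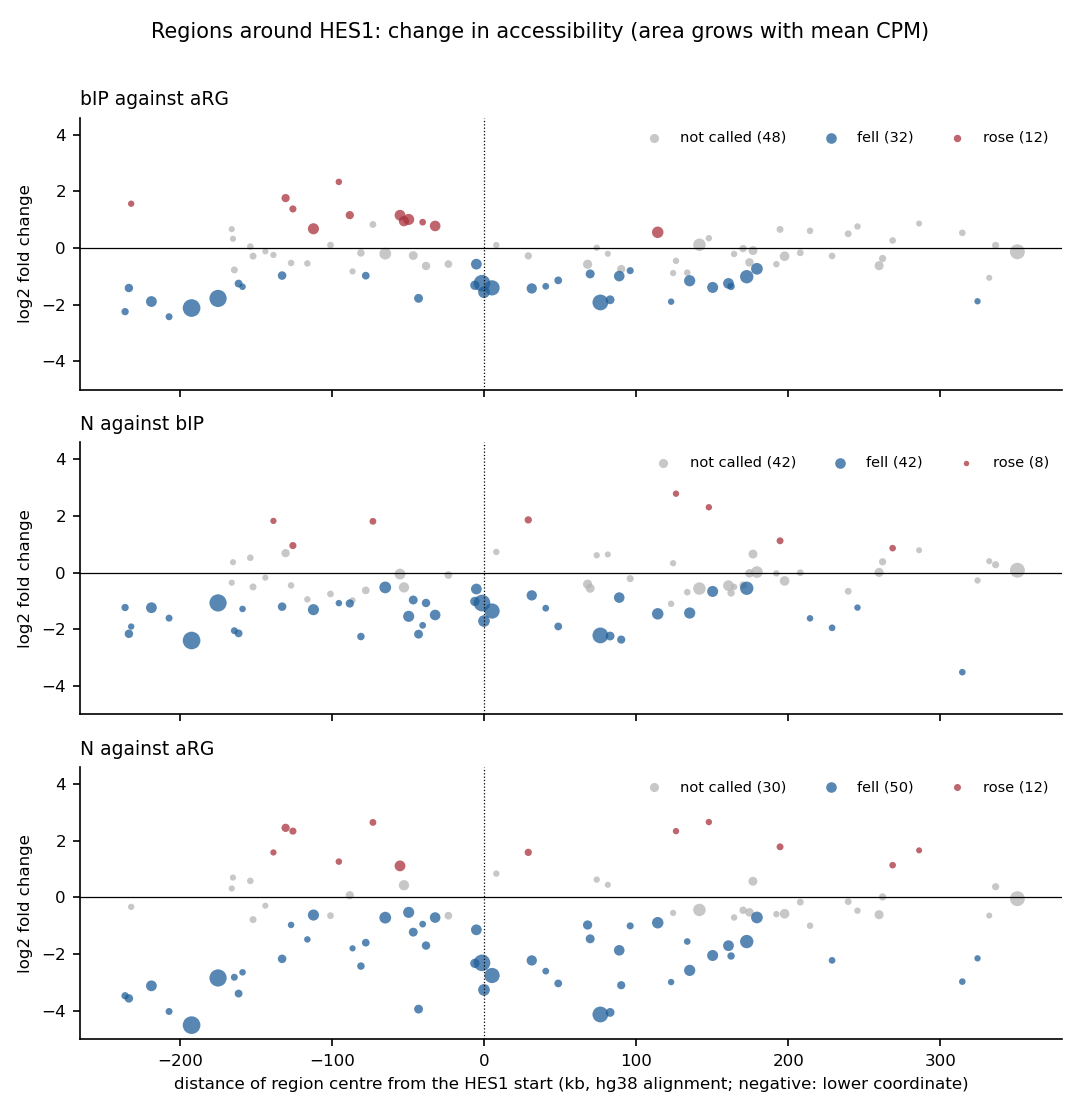
Log2 fold change (y axis) of the 92 tested regions of the HES1 window against the distance of their centre from the HES1 start in kb (x axis, negative towards lower coordinates) in bIP against aRG, N against bIP and N against aRG, coloured by call, with point area growing with mean CPM. Of the 92, 50 fell and 12 rose from aRG to N. Of the 12 that rose from aRG to bIP, 11 are among the 42 on the side of lower coordinates. Over all tested regions 24.5% rose from aRG to bIP.

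Over the whole window the summed CPM went from 881 and 814 in aRG and 826 and 765 in bRG to 485 and 531 in bIP and 349 and 295 in N. Of the 92 tested regions, 32 fell and 12 rose from aRG to bIP, 42 fell and 8 rose from bIP to N, and 50 fell and 12 rose from aRG to N, to be read against the shares of all regions given above. By level, 20 of the 24 with a mean of 10 CPM or more fell from aRG to N, and 27 of the 50 between 1 and 10 CPM, against 3 of the 18 under 1 CPM, where counts are lowest. Over all tested regions the share that fell also rose with level, at 53.1%, 34% and 17.9% in these classes, so the order is not particular to the window. By distance, 14 of 17 within 50 kb of the HES1 start fell from aRG to N, 11 of 18 between 50 and 100 kb, 18 of 38 between 100 and 200 kb and 7 of 19 beyond, where 31.7% of all tested regions fell. The last count is near that share, and the bins of 17, 18 and 19 regions are small.

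Not all of the neighbourhood followed the promoter. Of the 12 window regions that rose from aRG to bIP, 11 lay among the 42 tested on the side of lower coordinates. On the other side 1 of the 49 tested rose. Of all tested regions 24.5% rose. The count on the lower side is near that share, and the count on the other side is below it. The region 49.5 kb away on the lower side (chr3:192147384-192148554) had 11.1 and 11.2 CPM in aRG, 10.3 and 10.1 in bRG, 21.7 and 23.1 in bIP and 8.76 and 6.64 in N, so both bIP libraries stood above the other 6. It changed by 1.01 ± 0.19 from aRG to bIP (edgeR adjusted p = 0.00093) and by -1.54 ± 0.19 from bIP to N. At 55.2 kb the CPM were 6.78 and 7.01 in aRG, 10.6 and 10.2 in bRG, 14.9 and 15.9 in bIP and 16.0 and 13.9 in N, and this region rose from aRG to bIP by 1.16 ± 0.19 and was still up in N against aRG by 1.12 ± 0.19. Both were picked out after their values were seen.

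The largest rise from aRG to bIP in the window was at 95.4 kb on the lower side, a low region with 0.588 and 0.336 CPM in aRG, 0.647 and 0.578 in bRG, 2.65 and 2.07 in bIP and 1.18 and 1.06 in N (2.34 ± 0.39 from aRG to bIP). Its later fall from bIP to N (-1.07 ± 0.34) lost its call with DESeq2 (-1.17) and without library 1 of bIP (-0.89) or library 2 of N (-1.0).

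Other regions near HES1 opened in neurons. The region 130.4 kb away on the lower side, next to LINC02026, had 1.84 and 1.64 CPM in aRG, 1.94 and 2.14 in bRG, 6.98 and 4.88 in bIP and 10.9 and 8.29 in N, and rose by 1.77 ± 0.31 from aRG to bIP and by 2.46 ± 0.31 from aRG to N (edgeR adjusted p = 1.6e-05). At 73.0 kb on the same side the level stayed low in progenitors, 0.627 and 0.756 CPM in aRG, 0.471 and 0.612 in bRG and 1.16 and 1.30 in bIP, and reached 4.16 and 4.56 in N, with a rise of 2.65 ± 0.33 from aRG. At 147.8 kb on the other side 0.352 and 0.378 CPM in aRG, 0.559 and 0.340 in bRG and 0.509 and 0.422 in bIP stood against 2.39 and 2.28 in N (2.66 ± 0.39). In these 3 regions both N libraries lay above every other library. That N lay above aRG follows from how regions were named, among those whose libraries do not overlap. The N peak list had a peak on each that the aRG and bRG lists lacked. These lists describe the same populations and are no separate evidence. A further region 125.6 kb away on the lower side, close to that at 130.4 kb and also next to LINC02026, had 0.901 and 1.05 CPM in aRG, 3.09 and 2.00 in bIP and 5.96 and 3.93 in N (2.34 ± 0.36 from aRG to N). At 29.1 kb on the higher side 1.61 and 1.93 CPM in aRG stood against 4.53 and 6.17 in N (1.59 ± 0.32), and at 138.4 kb on the lower side 0.548 and 0.420 against 1.52 and 1.41 (1.59 ± 0.40). Neither of the last pair was called from aRG to bIP. The region at 126.2 kb on the higher side also rose (2.34 ± 0.54), but its N libraries had 1.18 and 3.85 CPM, and without library 2 of N the change was 1.27.

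**Figure D4:**
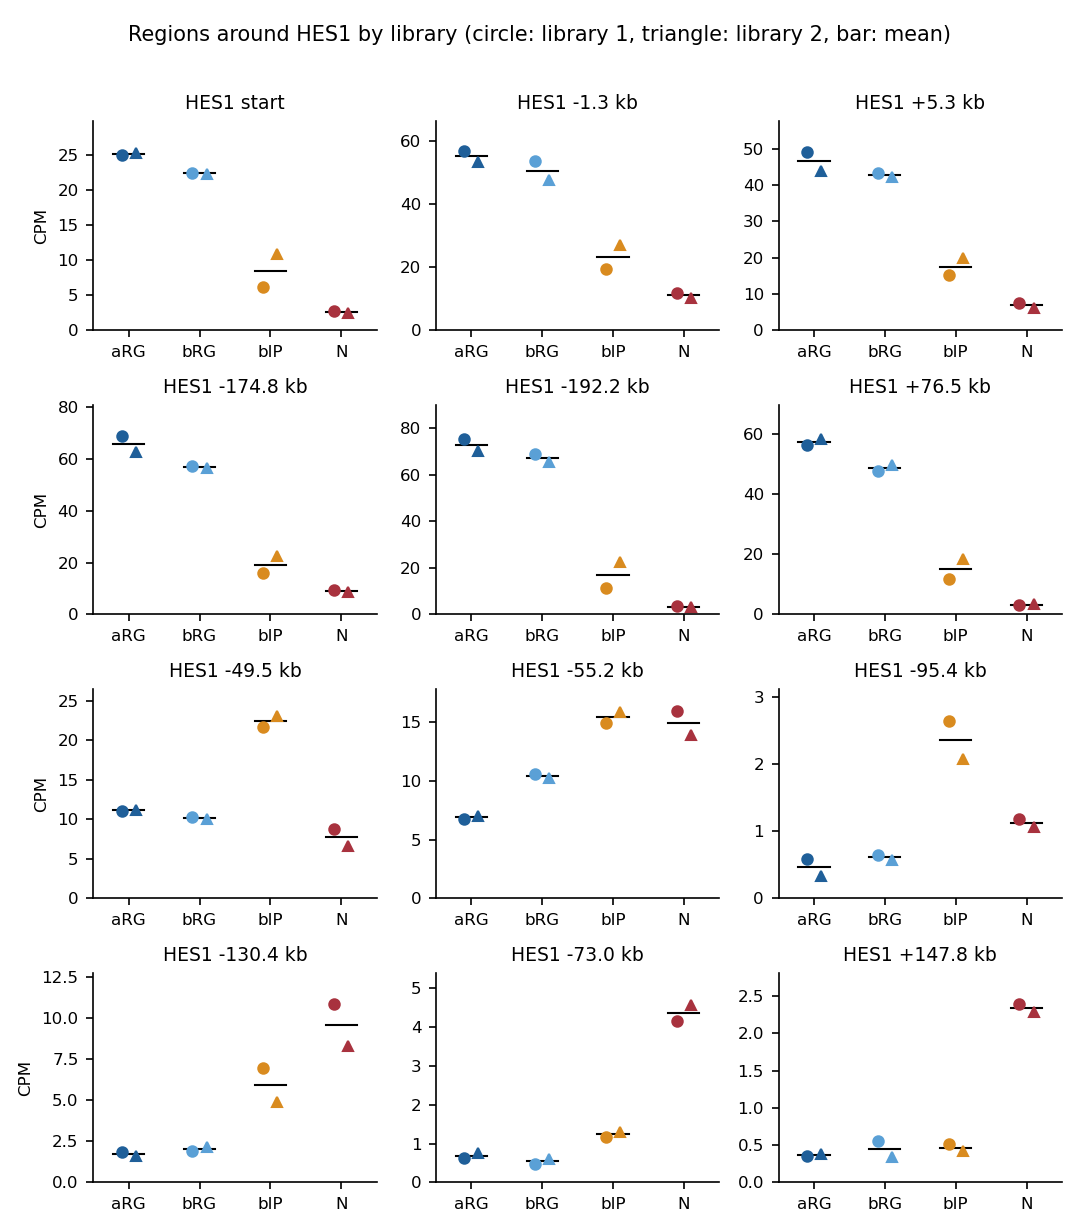
CPM (y axis, from 0, each panel on its own scale) by population (x axis) at 12 regions named by their distance from the HES1 start, with library 1 as a circle, library 2 as a triangle and the mean as a bar. The upper 6 panels fall from radial glia to N, the third row is higher in bIP than in aRG, and the last row is highest in N.

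HES5, the second main Notch target of radial glia, also lost accessibility in neurons, with the largest change at the farthest of its regions. No region lay on the HES5 start, and the 3 nearest were at 2239, 5010 and 10215 bp. The region at 10215 bp (chr1:1233037-1233796) had 24.0 and 17.1 CPM in aRG, 23.6 and 15.5 in bRG, 11.3 and 12.5 in bIP and 5.46 and 3.14 in N. It changed by -0.79 ± 0.27 from aRG to bIP and by -2.24 ± 0.29 from aRG to N (edgeR adjusted p = 1.9e-05). At 5010 bp the CPM were 11.8 and 8.23 in aRG, 5.92 and 6.33 in bIP and 3.54 and 2.08 in N, a change of -1.82 ± 0.34 from aRG to N.

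At 2239 bp the libraries of a population were further apart, with 28.4 and 17.0 CPM in aRG, 25.8 and 15.2 in bRG, 19.2 and 15.1 in bIP and 13.9 and 5.89 in N. Library 1 stood above library 2 in each population, and library 2 of aRG lay below library 1 of bIP. The change from aRG to bIP was -0.40 ± 0.35 and was not called, and the fall from aRG to N (-1.19 ± 0.36, edgeR adjusted p = 0.010) lost its call without library 1 of aRG (-0.79) or library 2 of N (-0.71), and was -1.97 without library 1 of N. For the region at 10215 bp the call from aRG to bIP was lost with library totals only (-0.61) and without library 1 of aRG (-0.53), library 1 of bIP (-0.72) or library 2 of bIP (-0.88).

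HES4, a gene that mice and rats lack, had 1 region, 2471 bp wide and on its start (chr1:11909719-11912189). It had 60.9 and 57.0 CPM in aRG, 59.7 and 52.6 in bRG, 34.8 and 38.2 in bIP and 31.9 and 31.1 in N. By point estimate most of the change came with bIP: -0.69 ± 0.10 from aRG to bIP (edgeR adjusted p = 0.00017), and -0.21 ± 0.10 from bIP to N, which was not called. Both N libraries still lay below both bIP libraries. With the replicate number as a block, the HES4 sum fell from bIP to N (-0.26, edgeR adjusted p = 0.038). N were 1.87-fold lower than aRG, and all 4 populations had a peak there.

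HEY2, another repressor of the family that is active in neural precursors and in the heart, had the highest promoter in CPM. The region on its start (chr6:123100808-123103028, 2221 bp) had 86.4 and 79.9 CPM in aRG, 74.1 and 67.0 in bRG, 49.5 and 60.6 in bIP and 36.9 and 24.5 in N, with no overlap between radial glia, bIP and N. It changed by -0.60 ± 0.16 from aRG to bIP, a call that was lost without library 1 of bIP (-0.46), and by -1.44 ± 0.16 from aRG to N (edgeR adjusted p = 6.0e-06). A small region 4955 bp away went almost shut, from 4.50 and 3.86 CPM in aRG and 5.21 and 4.15 in bRG to 1.05 and 1.07 in bIP and 0.186 and 0.353 in N, which is -3.97 ± 0.39, or 15.5-fold.

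The HEY2 regions did not move as one. At 3140 bp, between the start and the region that closed, the CPM were 7.36 and 4.24 in aRG, 8.00 and 4.56 in bRG, 5.27 and 3.92 in bIP and 8.45 and 10.7 in N, and the rise from bIP to N was 1.06 ± 0.35 (edgeR adjusted p = 0.024). This call was lost without library 2 of bIP (0.70) or of N (0.88). N was the only population with a peak there, and aRG and bRG the only ones with a peak at 4955 bp. The narrow region at 677 bp, 297 bp wide, fell from bIP to N (-1.10 ± 0.41, from 4.83 and 4.26 to 3.07 and 1.10 CPM), but the change was -0.56 without library 2 of N and -2.06 without library 1 of N, and the call was also lost without either library of bIP or of bRG.

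HES6, the antagonist of HES1, had regions that opened in bIP, while its promoter was not called between aRG and bIP. The region on its start (chr2B:124814953-124817441) had 54.7 and 47.5 CPM in aRG, 45.9 and 40.9 in bRG, 43.7 and 51.1 in bIP and 33.8 and 27.3 in N. The bIP libraries overlapped the aRG libraries, with a change of -0.11 ± 0.13, and both N libraries lay below all others, with a fall of -0.74 ± 0.13 from aRG (edgeR adjusted p = 0.00023). At 9755 bp (chr2B:124825553-124826698) a region that was nearly closed in radial glia, with 0.862 and 0.924 CPM in aRG and 1.12 and 1.05 in bRG, reached 10.7 and 5.72 in bIP and had 6.05 and 2.91 in N. It rose by 3.19 ± 0.43 from aRG to bIP (edgeR adjusted p = 0.00011), the largest rise of any member in that comparison, and by 2.33 ± 0.43 from aRG to N.

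A pair of smaller HES6 regions rose from aRG to bIP too. At 14148 bp 0.157 and 0.168 CPM in aRG and 0.353 and 0.340 in bRG stood against 0.836 and 1.11 in bIP (2.55 ± 0.48 from aRG), and at 7245 bp 0.196 and 0.0840 in aRG against 0.945 and 0.806 in bIP (2.59 ± 0.65), which lost its call without library 2 of aRG (2.14). At 16353 bp the bIP libraries, with 6.29 and 6.26 CPM, lay above aRG with 3.49 and 4.03 without a call, and N fell from bIP to 2.27 and 1.30 (-1.80 ± 0.33). At 23138 bp 3.72 and 3.61 CPM in aRG stood against 2.17 and 2.20 in N (-0.74 ± 0.28), a call lost with library totals only (-0.62) and without any one of the 4 libraries compared (-0.78 to -0.74). In the peak lists only bIP had a peak at 9755 bp. Of the 6 HES6 regions, 3 rose and none fell from aRG to bIP, where 24.5% of all tested regions rose and 22.6% fell. From bIP to N 4 fell, where 22.6% of all fell. Of these 4, the falls at 14148 bp (-1.11 ± 0.40) and 23138 bp (-0.78 ± 0.27) lost their calls without library 1 of aRG (-1.12 and -0.79) and in several other fits that left out a library.

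**Figure D5:**
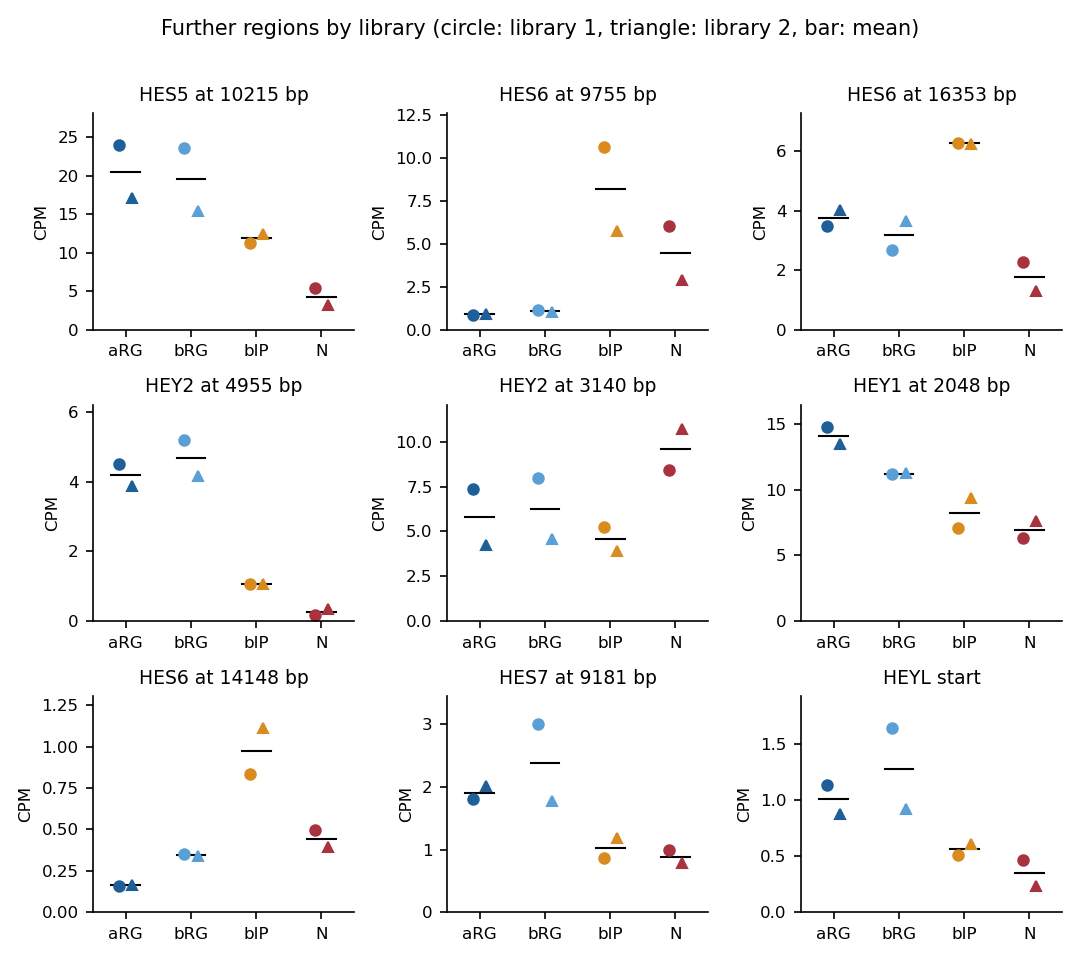
CPM (y axis, from 0, each panel on its own scale) by population (x axis) at 9 further regions near HES5, HES6, HEY2, HEY1, HES7 and HEYL, with library 1 as a circle, library 2 as a triangle and the mean as a bar. By mean, HES6 at 9755 and 14148 bp is lowest in radial glia and highest in bIP, though bIP and N libraries overlap at 9755 bp. HEY2 at 4955 bp goes from 4.50 and 3.86 CPM in aRG to 0.186 and 0.353 in N.

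HEY1, a partner of HES1 in repression, had a region that opened in neurons and another that became less open. No region lay on the HEY1 start. The region at 4271 bp (chr8:77868664-77869658) had 8.38 and 5.59 CPM in aRG, 7.77 and 5.10 in bRG, 9.38 and 7.87 in bIP and 17.1 and 23.3 in N, with both N libraries above all others, and rose by 1.23 ± 0.27 from bIP to N and by 1.53 ± 0.28 from aRG to N (edgeR adjusted p = 0.00031). Only N had a peak there. At 2048 bp (chr8:77871406-77871881) the opposite held, with 14.8 and 13.5 CPM in aRG, 11.2 and 11.3 in bRG, 7.09 and 9.37 in bIP and 6.33 and 7.62 in N, a fall of -1.02 ± 0.22 from aRG to N, and all 4 populations had a peak. The HEY1 sum thus adds regions that moved in opposite directions, among them one at 1021 bp with 4.38 to 7.17 CPM in the 8 libraries and one at 6553 bp with 0.400 to 1.09 CPM, neither of which was called.

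HES2 was low and opened in bIP. The region on its start (chr1:5123523-5125674, 2152 bp) had 4.62 and 4.12 CPM in aRG, 4.33 and 3.84 in bRG, 11.4 and 8.98 in bIP and 11.3 and 7.78 in N. All bIP and N libraries lay above all radial glia libraries, and bIP and N overlapped. The rise from aRG to bIP was 1.22 ± 0.27 (edgeR adjusted p = 0.0030) and that from aRG to N 1.13 ± 0.27, and only bIP and N had a peak. The other HES2 region, at 4976 bp, had 0.746 to 1.18 CPM and no call.

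HES7, best known from the oscillator that times the formation of somites, and HEYL were the genes whose sums were not called in any comparison. The HES7 region at 1320 bp (chr17:42687101-42688856) had 30.0 and 23.9 CPM in aRG, 28.0 and 22.7 in bRG, 28.6 and 21.7 in bIP and 26.1 and 24.8 in N, and the difference between N and aRG was -0.08 ± 0.16. The libraries of the populations overlapped throughout, and all 4 peak lists covered it. The second HES7 region, at 9181 bp, had 1.80 and 2.02 CPM in aRG and 0.994 and 0.786 in N (-1.09 ± 0.37), a call lost without library 2 of aRG (-1.02) or of N (-0.93). On the HEYL start 1.14 and 0.882 CPM in aRG stood against 0.509 and 0.614 in bIP and 0.466 and 0.236 in N (-1.48 ± 0.47 from aRG to N), which was not called without library 1 of aRG (-1.30) or library 2 of N (-1.11), and the region had no peak in any list. The HEYL region at 13576 bp had 3.31 to 6.13 CPM, with a peak in all 4 lists and no call.

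In the deposited lists, 1 per population, peaks covered 66 of the 118 member regions (55.9%) in aRG and likewise in bRG, against 53 (44.9%) for bIP and 48 (40.7%) for N. Of all regions with counts, 37.7% had a peak in aRG, 39.2% in the bRG list, 37.4% in the bIP list and 38.1% in the N list. Of the members, 36 had a peak in all 4 populations, 36 in none, 14 in aRG and bRG only, 12 in all but N and 8 in N only. These patterns were not counted over all regions, so whether they are common among other regions is not known here. A gorilla identifier was given for 114 of the 118 members (96.6%), beside 94.6% of all regions. Among the 27 regions nearest to a member gene, 23 had one (85.2%), and in the HES1 window all 93 had one. The 4 without were the HES4 region and the 3 HES5 regions.

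The rest of the Notch pathway was read from gene sums, for lists of genes chosen by function. Their counts are to be read against all gene sums, of which 22% rose and 18.7% fell from aRG to bIP, 20.9% rose and 19.2% fell from bIP to N, and 32.8% rose and 28% fell from aRG to N. Of 11 tested ligands and modifiers, 5 rose and 1 fell from aRG to bIP, none rose and 5 fell from bIP to N, and 3 rose and 2 fell from aRG to N, where the risen are near the share of all gene sums and the fallen below it. DLL3, a ligand that blocks Notch within its own cell, rose from aRG to bIP. Its mean was 10.2 ± 0.131 CPM in aRG, 43.2 ± 6.34 CPM in bIP and 18.7 ± 0.576 CPM in N (SD, n = 2), a rise by 2.09 ± 0.17 on the log2 scale (edgeR adjusted p = 8.1e-05). DLL4, a ligand, rose from aRG to bIP by 0.96 ± 0.22, a call lost without library 2 of aRG (0.88) or library 1 of bIP (0.84). JAG1, another ligand, had -0.86 ± 0.12 from aRG to N, also a call.

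Among 16 tested receptors and genes of their processing, 2 rose and 6 fell from aRG to bIP, 1 rose and 7 fell from bIP to N, and 3 rose and 7 fell from aRG to N (32.8% and 28% of all gene sums). The receptor NOTCH3 averaged 48.3 ± 0.563 CPM for aRG, 25.5 ± 5.67 for bIP and 17.7 ± 0.661 for N (SD, n = 2), a change of -1.44 ± 0.14 (edgeR adjusted p = 5.1e-05). NRARP, a Notch target that feeds back on the pathway, changed by -1.44 ± 0.10, and by -0.79 over its regions within 1 kb. NUMBL, a relative of the Notch inhibitor NUMB, rose by 0.74 ± 0.09 from aRG to bIP. APH1B, a subunit of gamma-secretase, fell by -1.39 ± 0.15 from aRG to N over 15 regions, while its regions within 1 kb gave 0.08, which was not called.

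Of 17 nuclear partners and co-repressors, 2 rose and 3 fell from aRG to bIP, none rose and 6 fell from bIP to N, and none rose and 10 fell from aRG to N. The 3 fallen from aRG to bIP are near the share of all gene sums, 18.7%, while 28% of all fell from aRG to N. The co-repressors TLE1 (-1.44 ± 0.15, edgeR adjusted p = 5.6e-05) and TLE4 (-1.12 ± 0.10) had the largest changes from aRG to N, and TLE4 had -0.32 over its regions within 1 kb. RBPJ itself, looked at after its values were seen, had 0.15 ± 0.09 from aRG to N, without a call, and the sign turned when only regions within 50 kb (-0.06) or 1 kb (-0.04) were summed.

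Proneural and neurogenic genes moved both ways. The list also holds HES3, itself of the HES family, and the repressors BHLHE40 and BHLHE41. Of 17 tested, 7 rose and 3 fell from aRG to bIP (22% and 18.7% of all gene sums), 1 rose and 7 fell from bIP to N (20.9% and 19.2%), and 3 rose and 7 fell from aRG to N (32.8% and 28%). NEUROD2, a neuronal differentiation factor, averaged 21.2 ± 2.68 CPM for aRG, 124 ± 13.3 for bIP and 157 ± 2.13 for N (SD, n = 2) and rose by 2.89 ± 0.13 from aRG to N (edgeR adjusted p = 6.0e-06). NEUROD1 rose by 1.42 ± 0.16 and NEUROD4 by 1.36 ± 0.29 from aRG to bIP. NEUROG2, a proneural factor of progenitors with 1 assigned region, had -2.26 ± 0.44 from aRG to N, a call. NEUROG3 fell by -1.96 ± 0.23 over 4 regions, but its regions within 1 kb rose by 2.05 (edgeR adjusted p = 0.0082).

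Among 14091 protein-coding genes, members included, those whose gene sums were most like a member's over the 8 libraries were found by the root mean square distance between log2 CPM values centred on each gene's mean. For HES1 they were DMRT3, a transcription factor of the dorsal forebrain, at a distance of 0.097, MFSD2B at 0.098 and FRAT2, a regulator of Wnt signalling, at 0.098. DMRT3 changed by -1.08 from aRG to bIP and -1.23 from bIP to N, beside -1.15 and -1.25 for HES1. This likeness follows from how DMRT3 was chosen, over the same 8 libraries and among many genes, and is no separate result. For HES6 they were NNMT (0.035), RCOR2, a co-repressor subunit (0.058), and MDFIC (0.060), and for HEY2 they were NFE2L2 (0.030) and SIX4 (0.038). For HEY1 they were KCNV2 (0.063), PAICS (0.072) and DCLK1 (0.074), and for HES5 the nearest gene was further away, LGALS1 at 0.125. The nearest to HES4 was TP53BP2 (0.041), to HES2 PLEKHA6 (0.094), to HES7 PDXK (0.053) and to HEYL FGL2 (0.084).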

How the data were processed

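ATAC-seq was measured in 8 libraries, 2 for each of 4 sorted populations. The deposited table holds whole-number counts per region, unscaled, per the file headers, with region identifiers of 3 species and the closest gene with its distance. The tools and builds named, per the submitters' processing notes, were bcl2fastq 2.20.0, MACS2, panTro6 and hg38. The aligner was not given in the sources used here, nor was the annotation. The consensus peak lists, 1 per population, carry per the file headers and layout a score, a fold enrichment ratio and the -log10 of p and of q, all from the authors' peak caller; only their intervals were used, with an overlap of at least 1 bp, and a deposited -log10 q-value of at least 10 as an alternative.

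Of 218080 rows, 6725 without a chimpanzee identifier (total count 0) and 7 repeats were left out. Coordinates are panTro6, counted from 1; region starts matched 54881 peak starts when read from 0 and 11 when read from 1. Distances were taken as deposited, measured from the region's edge and without sign, and the genome build behind them is not stated; offsets from the HES1 start were computed from hg38 identifiers. Exons and introns were not analysed here, and no sequence is shown, since no genome of this build was used. For the likeness to other genes, protein-coding symbols came from a table of assembly NHGRI_mPanTro3-v2.0, which 14091 of the gene sums used matched.

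The count model was edgeR 4.0.16's robust quasi-likelihood test after filterByExpr and TMM scaling. The 8 libraries entered 1 model, with a term for population and no other, over regions (198227 tested, 4 residual and 8.62 prior degrees of freedom, biological coefficient of variation 0.216) and over counts summed by closest gene (40618 tested). Adjusted p is Benjamini-Hochberg over all items tested, with a threshold of 0.05. With 2 libraries against 2 an exact permutation test cannot go below p = 0.333, so none was used. Library totals set the counting precision, and standard errors include the spread between libraries.

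Alternatives were DESeq2's size factors in edgeR, library totals only, no filter, a replicate block, DESeq2 1.42.0, leaving out each library, only the regions nearest to a member gene, gene sums within 50 kb or 1 kb, and an overlap of 50% of the region. The members, gene lists and tests were chosen with earlier results of these data known. Regions named are, for each gene, the nearest and the highest, the 5 largest rises and falls among those called whose libraries do not overlap in each of 3 comparisons (bIP against aRG, N against bIP, N against aRG), and the 5 highest of the HES1 window; the other regions near the genes outside the window are described too. From each pathway list, up to 4 called genes with the largest change in N against aRG and in bIP against aRG could be named. Some genes that these rules select are not reported here.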

Additional observations from a re-analysis of the deposited data

How the results depend on the processing

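Of 322 called values of member regions over the 6 comparisons, 220 kept their call under every alternative run, and 19 of 25 called gene sums did; none of these changed direction. Of 149 called values of pathway genes, 71 did, with 186 alternative values that lost the call and 15 that turned sign. Keeping only regions nearest to a member gene, which tests fewer regions by construction, left 26 tested. Of these, 11 were called from aRG to bIP (47.2% of all regions), 11 from bRG to bIP (42.9%) and 13 from bIP to N (47.6%). From aRG to N 18 were called (69%), and from bRG to N 17 (67.9%). Pooled over both directions, these counts are near the shares of all regions. By direction, 14 of the 26 fell and 4 rose from aRG to N (31.7% and 37.2% of all). From bIP to N 11 fell and 2 rose (22.6% and 25%), and from aRG to bIP 7 fell and 4 rose (22.6% and 24.5%). Against bRG, 7 fell and 4 rose in bIP (20.4% and 22.4%), and 14 fell and 3 rose in N (30.4% and 37.5%). Leaving out 1 library at a time gave 31 to 58 calls from bRG to bIP (54 with all; 31 without library 1 of bIP and 34 without library 1 of bRG), 38 to 55 from aRG to bIP, 3 to 5 gene sums from aRG to bIP and 3 to 5 from bIP to N. The cause was not tested.

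Libraries with the same number deviated together, with correlations of their differences between 0.116 and 0.313 over regions and 0.171 and 0.492 over gene sums, but the labels do not say that a number marks a shared culture. With the replicate number as a block, 5 gene sums were called from aRG to bIP in place of 3, the added ones being HES6 (0.36, edgeR adjusted p = 0.024) and HEY2 (-0.38, edgeR adjusted p = 0.036), and 62, 72 and 89 member regions from aRG to bIP, from bIP to N and from aRG to N in place of 53, 61 and 78. From bIP to N 6 gene sums were called in place of 5, the added one being HES4 (-0.26, edgeR adjusted p = 0.038). The share called also grew over all regions, from 47.2% to 53.6%, 47.6% to 55.2% and 69% to 73%. Over all gene sums it grew from 40.7% to 49.6% from aRG to bIP and from 40.1% to 50% from bIP to N.

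Some values changed sign. Among uncalled ones, HES6 start from aRG to bIP was 0.0622 with library totals only, HES7 at 1320 bp from aRG to N was 0.0412 with library totals only and -0.257 to 0.0745 with 1 library left out, and HES5 at 2239 bp from aRG to bIP was -0.727 to 0.0130 with 1 library left out. Gene sums over regions within 1 kb gave -0.0033 for NEURL1 from aRG to bIP, 0.0795 for APH1B, -0.0403 for RBPJ and 2.05 for NEUROG3 from aRG to N, and 1.03 for NEUROG3 from aRG to bIP; within 50 kb RBPJ was -0.0574. The cause was not tested. Depth limits what can be said of regions under 1 CPM, which rest on few counts per library. With 2 libraries per population, a single library can carry a call.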
